A study of Homo sapiens with 12 samples.

Results

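The miR-183 cluster is a group of 3 miRNA genes, MIR183, MIR96 and MIR182, whose mature products were measured by 4 of the 501 assays in the deposited table. The assays were chosen by name, as those numbered like miR-183, miR-96 or miR-182, which gave hsa-miR-183, hsa-miR-183#, hsa-miR-96 and hsa-miR-182, written without the species prefix from here on. All 4 assays were measured in all 12 samples. The samples were 2 human embryonal carcinoma cell lines, 2102Ep and NTera-2, each transfected for 6 h with an siRNA against SOX2 (siSOX2) or with a non-targeting siRNA (NC). Each of the 4 groups held 3 biological replicates: 2102Ep siSOX2, 2102Ep NC, NTera-2 siSOX2 and NTera-2 NC. Both siRNAs were used at 15 nM with Lipofectamine 2000 in 2102Ep cells and at 30 nM with Lipofectamine RNAiMAX in NTera-2 cells, so dose and reagent cannot be told apart from the line. RNA was taken after a further 72 h. SOX2 itself was not among the assays, so the knock-down was not checked here. Each line is a single established tumour line, which limits how far it stands for other embryonal carcinomas.

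MiRNAs are short RNAs that lower the output of mRNAs carrying a match to their seed, bases 2 to 8 of the mature strand. The miR-183 cluster is known as a sensory cluster, because its members are abundant in the hair cells of the inner ear and in the photoreceptors of the retina, and a change in the seed of miR-96 causes inherited hearing loss in humans and mice. The members are also present in epithelial tumours and in pluripotent cells. SOX2, a transcription factor of the SRY-related HMG-box family, holds embryonal carcinoma cells in an undifferentiated state and is also needed for the progenitors of the inner ear and the retina.

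In the RefSeq annotation of GRCh38.p14 the 3 precursors lie on the minus strand within 4632 bases, chr7:129770383-129775014. MIR183 (chr7:129774905-129775014) and MIR96 (chr7:129774692-129774769) are 135 bases apart, and MIR182 (chr7:129770383-129770492) is separated from MIR96 by 4199 bases. No other annotated gene overlapped this stretch, and the nearest, the lncRNA gene LOC105375501, ended 1178 bases from MIR182. The assays measured the 5′ arm of each precursor, and miR-183# is the 3′ arm of MIR183. The assay for miR-96 carries a mouse name in the deposited table. The mature sequences of the 4 members are given with the seed in capitals, together with miR-1271, the other assay in the table whose RefSeq sequence has the seed of a member.
miR-183: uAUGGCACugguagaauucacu
miR-183#: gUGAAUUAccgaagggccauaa
miR-96: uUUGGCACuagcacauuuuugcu
miR-182: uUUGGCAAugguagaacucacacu
miR-1271: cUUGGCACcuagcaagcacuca
The 5′-arm members have closely related but different seeds. The seeds of miR-96 and miR-182 share 6 of 7 bases, those of miR-183 and miR-96 share 6, and those of miR-183 and miR-182 share 5. Over their whole length, miR-183 and miR-182 had the same base at 18 of 22 positions, against 13 of 22 for miR-183 and miR-96 and 12 of 23 for miR-96 and miR-182. The seed of miR-96 is also that of miR-1271, whose gene lies on chromosome 5 (chr5:176367960-176367981 for the mature strand). Between miR-183# and miR-183 3 of 22 positions were the same.

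Levels were read as Ct, the PCR cycle at which an assay crosses its threshold, so that 1 cycle stands for about 1 doubling, on a log2 scale, and a higher Ct is less RNA. The deposited dCt is the Ct minus that of reference RNAs of the same sample and card. Samples of 2102Ep had 421 to 433 measured assays and those of NTera-2 449 to 451, and dCt correlated between replicates by 0.940 to 0.989. The raw Ct of miR-182 lay between 23.3 and 25.9 over the 12 samples, that of miR-183 between 24.8 and 27.6 and that of miR-183# between 22.0 and 24.5. MiR-96 was the weakest of the 4, with a raw Ct of 26.8 to 28.7 in NTera-2 cells and of 30.2 to 35.1 in 2102Ep cells. Markers of the labelled cell type were the 12 assays for miR-302, miR-367 and the miR-371 to miR-373 group. All 12 were measured in all 12 samples, at a raw Ct of 13.8 to 27.0. Measurement in all 12 samples was found for 366 assays besides the 4 members, so it does not by itself identify a cell type.

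In 2102Ep cells 3 of the 4 members were lower after transfection with the siRNA against SOX2. MiR-96 was 8.0-fold lower, miR-183 2.9-fold lower and miR-182 2.08-fold lower in siSOX2 than in NC cells, and these 3 passed the test. On the log2 scale the fall of miR-96 was -3.0, and it lay between -3.72 and -2.08 when 1 siSOX2 sample was left out. MiR-183#, the other arm of the miR-183 precursor, had a 2.2-fold lower value that did not pass it. Of the 432 assays tested, 61 passed an adjusted p of 0.05 (14.1%), and 41 of them were lower in siSOX2 (9.49%). The samples are bulk RNA, in which fewer cells of a type and less RNA per cell cannot be told apart.

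MiR-183 had a dCt of 8.14, 7.93 and 9.17 in the 3 siSOX2 samples of 2102Ep, against 6.58, 7.15 and 6.90 in the NC samples. Every siSOX2 sample lay above every NC sample, so the level was lower in all 3, with replicate 3 the lowest. The log2 fold change was -1.54 ± 0.32 (SE, n = 3 each, 95% interval -2.25 to -0.82, adjusted p = 0.0108, limma). MiR-183, which is known to target the mRNA of the cytoskeletal linker ezrin in cancer cells, passed the test under each of 18 alternatives, with adjusted p of 0.00725 to 0.0489.

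MiR-96, the member whose seed is tied to hearing, had a dCt of 14.91, 17.13 and 13.87 in siSOX2, against 12.44, 12.59 and 11.88 in NC cells of 2102Ep. The groups did not overlap, but the siSOX2 samples spread over more than 3 cycles. The log2 fold change of -3.0 ± 0.73 had an adjusted p of 0.0218 (SE, limma). It rested in part on single samples, with -2.08 without siSOX2 replicate 2 (adjusted p = 0.0352), the sample of highest dCt, and -3.72 without siSOX2 replicate 3 (adjusted p = 0.0116). At a raw Ct of 32.3 to 35.1 in siSOX2 samples, the assay was near the weak end of its range, which moves with the size of the change, and its part in the result was not tested. With a limit of 32 on the mean raw Ct the assay was left out, with the 6 samples of the line alone its adjusted p was 0.0595, and without NC replicate 1 or 3 it was 0.0576 or 0.0838.

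MiR-182, which differs from miR-96 by 1 base of the seed, had a dCt of 6.07, 6.31 and 6.59 in siSOX2, against 5.07, 5.27 and 5.46 in NC cells of 2102Ep. The siSOX2 samples were all higher in dCt, and the replicates of each group lay close together. The log2 fold change was -1.06 ± 0.24 (SE, adjusted p = 0.0154, limma). It was -0.71 (adjusted p = 0.109) against RNU44 and RNU48, and the adjusted p was 0.0629 without NC replicate 1 and 0.0530 without siSOX2 replicate 3.

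MiR-183# had the smallest change of the 4 members relative to its error. Its dCt was -1.06, -0.77 and 0.11 in siSOX2, against -1.72, -1.95 and -1.47 in NC cells of 2102Ep. The groups again did not overlap, although siSOX2 replicate 1 lay close to NC replicate 3. The log2 fold change of -1.14 ± 0.43 had an unadjusted p of 0.0238 and an adjusted p of 0.112 (limma). Groups that do not overlap were found for all 4 members in 2102Ep and for 31.9% of all 432 assays. In the per-sample levels, siSOX2 replicate 3 was the lowest of its group for miR-183, miR-183# and miR-182 but the highest for miR-96.

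**Figure D1:**
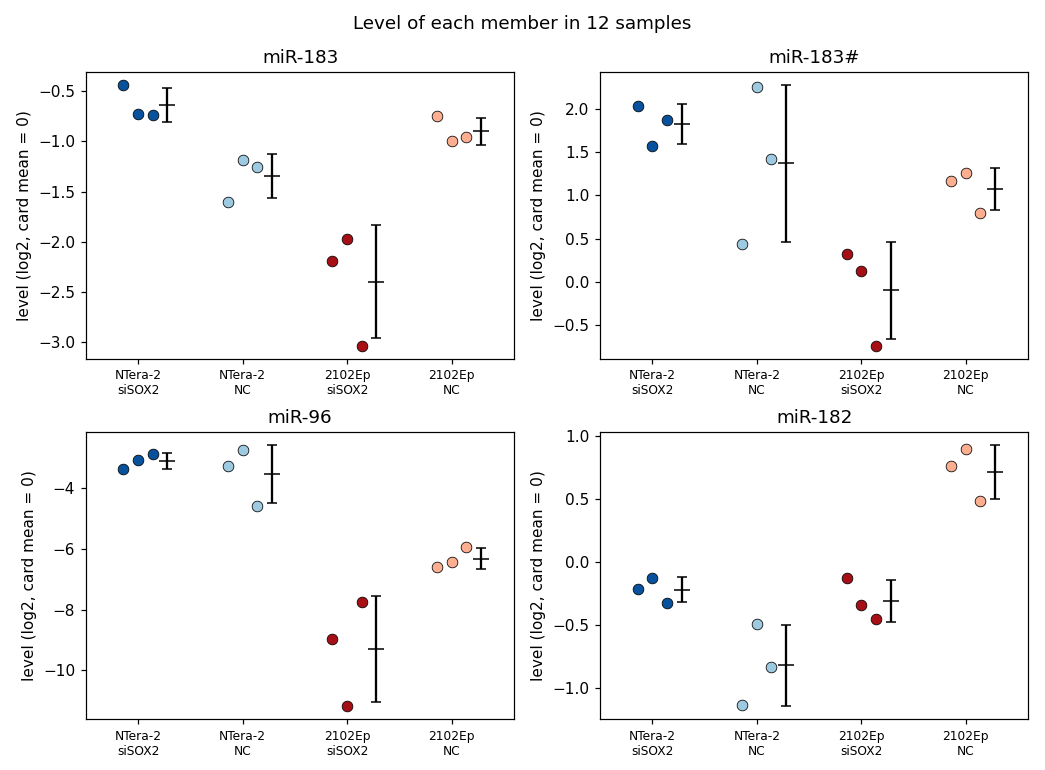
Level of miR-183, miR-183#, miR-96 and miR-182 in each of the 12 samples (points), as minus the difference of raw Ct from the mean of the sample's card (log2, 0 is the card mean), with the mean and SD of each group of 3 beside them. In 2102Ep cells the siSOX2 samples lie below the NC samples for every member, while in NTera-2 cells the siSOX2 and NC samples overlap for miR-183# and miR-96.

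In NTera-2 cells no member passed the test after SOX2 knock-down, in limma or when each assay was tested alone. Before adjustment, 0 of 4 had a limma p of 0.05 or less, against 21.7% of all assays. The values of miR-183, miR-182 and miR-96 were above 0 and that of miR-183# was near 0. Of 451 assays tested, 25 passed (5.54%), and the median of all assays was -0.27 on the log2 scale, so that the members were above that median.

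MiR-183 had a dCt of 10.45, 10.52 and 10.47 in siSOX2, against 11.31, 10.79 and 10.79 in NC cells of NTera-2. These groups did not overlap, as was so for 29% of all assays, and the dCt was lower in every siSOX2 sample. The log2 fold change was 0.49 ± 0.32 (SE, 95% interval -0.23 to 1.20, adjusted p = 0.444, limma). MiR-182 had a dCt of 10.23, 9.92 and 10.05 in siSOX2, against 10.85, 10.10 and 10.37 in NC cells, with a log2 fold change of 0.37 ± 0.24 (adjusted p = 0.431, limma). MiR-96 had a dCt of 13.40, 12.87 and 12.61 in siSOX2, against 13.00, 12.36 and 14.14 in NC cells. Its NC samples spread over nearly 2 cycles and enclosed the siSOX2 samples, and the log2 fold change of 0.21 ± 0.73 had an interval of -1.42 to 1.83. MiR-183# had a dCt of 6.18, 6.86 and 6.16 in siSOX2, against 7.21, 5.64 and 6.21 in NC cells. Here too the NC samples enclosed the siSOX2 samples, and the log2 fold change was -0.05 ± 0.43 (95% interval -1.0 to 0.91, adjusted p = 0.975, limma). The value estimated in 2102Ep cells lay below the NTera-2 interval for miR-183, miR-96, miR-182 and, only just, miR-183# (-1.14). This leaves out the error of the 2102Ep values, so it is no test of a difference between the lines.

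**Figure D2:**
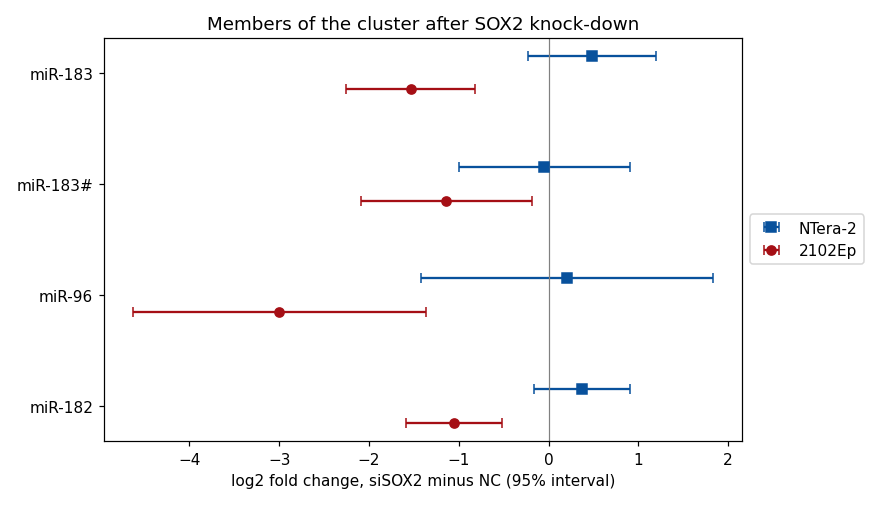
Log2 fold change of each member, siSOX2 minus NC, in NTera-2 (squares, above) and 2102Ep (circles, below), with 95% intervals from the fit over all assays. In 2102Ep cells the 4 intervals lie below 0, and in NTera-2 cells all 4 contain 0.

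The difference between the lines was tested directly, as the knock-down effect in NTera-2 minus that in 2102Ep. It passed for miR-183, at 2.02 ± 0.45 (SE, log2 scale, adjusted p = 0.0382, limma), and for miR-182, at 1.43 ± 0.34 (adjusted p = 0.0405, limma). Among all 385 assays tested in both lines 17 passed (4.42%), 7 of them in this direction (1.82%). MiR-96 had a larger difference of 3.20 ± 1.04 that did not pass (adjusted p = 0.0962), and miR-183# had 1.09 ± 0.61 (adjusted p = 0.338). With the replicate number as a block neither miR-183 (adjusted p = 0.0871) nor miR-182 (adjusted p = 0.0713) passed, and no member did against U6 or against RNU44 and RNU48. When each of the 12 samples was left out in turn, miR-183 passed in 4 of the 12 fits, those without a 2102Ep siSOX2 sample or without NTera-2 NC replicate 2 (adjusted p of 0.0253 to 0.0986 over the 12). MiR-182 passed in 1, that without NTera-2 NC replicate 2 (adjusted p of 0.0254 to 0.0985). Without 2102Ep siSOX2 replicate 3 miR-96 passed as well, at 3.92 (adjusted p = 0.0434).

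**Figure D3:**
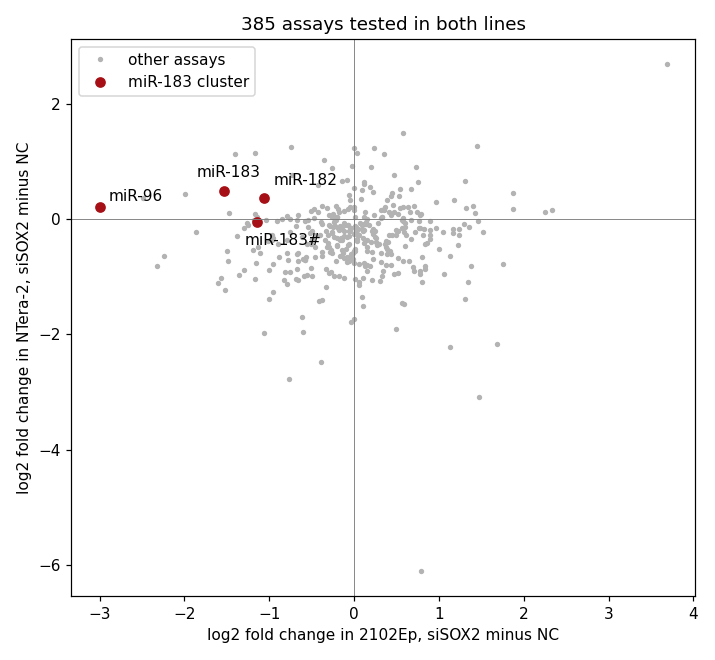
Log2 fold change after SOX2 knock-down (siSOX2 minus NC) of the 385 assays tested in both lines, in 2102Ep cells (x axis) and in NTera-2 cells (y axis), with the miR-183 cluster in red. The 4 members lie at -3.0 to -1.06 on the x axis and at -0.05 to 0.49 on the y axis.

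The choice of the reference RNA bears on every one of these values, and it was therefore varied. In 2102Ep cells miR-183 lay between -1.54 and -1.18 with the deposited dCt, U6, RNU44 with RNU48, or the mean or median of the card as the reference, and passed the test with each. MiR-96 lay between -3.0 and -2.65 and also passed with each. RNU44 and RNU48 gave the values nearest to 0 for all 4 members, with -0.58 for miR-183#. In NTera-2 cells miR-183 lay between 0.30 and 0.71 and miR-182 between 0.19 and 0.60, and no member passed with any of the 5 references. The sign of miR-183# in NTera-2 cells depended on the reference, with 0.46 against the card mean.

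**Figure D4:**
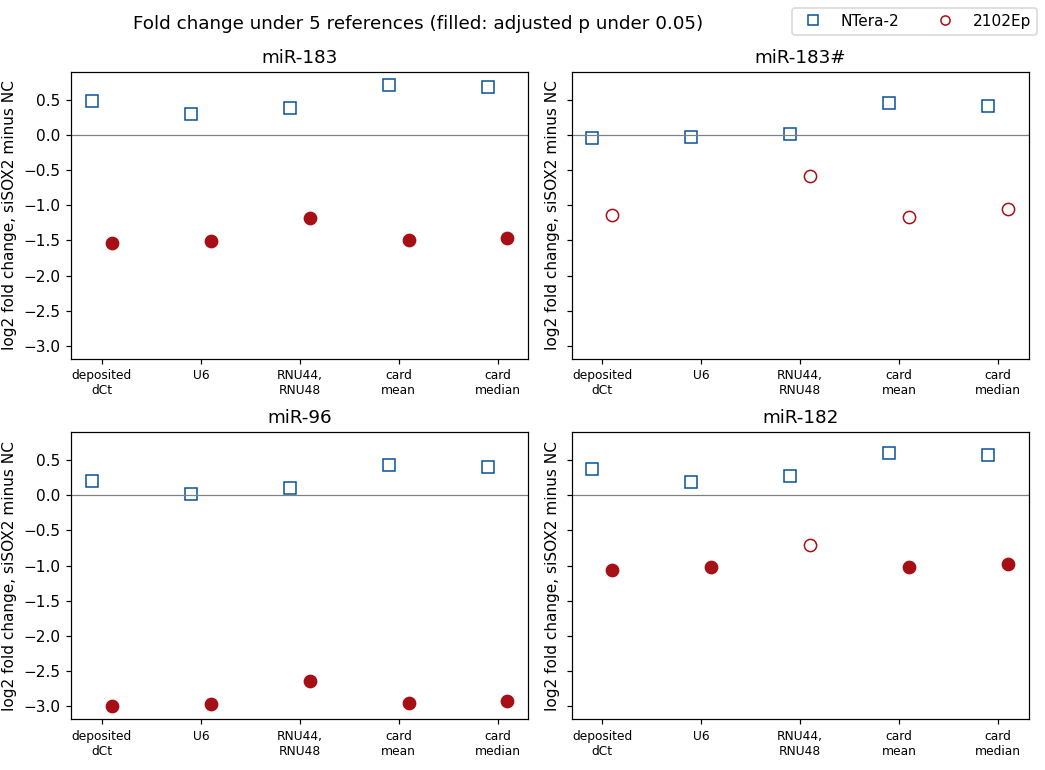
Log2 fold change of each member, siSOX2 minus NC, in NTera-2 (squares) and 2102Ep (circles) with 5 references, where a filled symbol has an adjusted p under 0.05. MiR-183 and miR-96 are filled in 2102Ep cells with every reference, miR-182 with every reference but RNU44 and RNU48 (-0.71), and no symbol is filled for NTera-2 cells or for miR-183#, which has no U6 value in 2102Ep cells.

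Whether the members moved by the same amount was read from the difference between 2 members within a sample, which for miR-183, miR-96 and miR-182 is free of the reference because they share card A. MiR-96 minus miR-182 was -8.98 ± 1.78 in siSOX2 and -7.04 ± 0.54 in NC cells of 2102Ep (SD, n = 3 each, log2 scale). The change of -1.94 had an exact two-sided permutation p of 0.3, and 1 siSOX2 sample, at -7.28, lay among the NC samples. MiR-183 minus miR-182 was -2.09 ± 0.48 in siSOX2 and -1.61 ± 0.24 in NC cells of 2102Ep (exact permutation p = 0.2). The 2 arms of the miR-183 precursor, miR-183 minus miR-183#, differed by -8.98 ± 0.26 in siSOX2 and -8.59 ± 0.45 in NC cells of 2102Ep, a change of -0.40 on dCt scales that use different references per card. In NTera-2 cells the 6 changes lay between -0.42 and 0.53. None of the 12 pairs had groups apart, the lowest exact p was 0.2 (adjusted over 12 tests, 0.6), and 3 samples against 3 cannot give a p below 0.1.

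The lines themselves differed in the make-up of the cluster. On a scale where the mean of each card is 0, miR-96 was 6.92-fold higher in NTera-2 than in 2102Ep cells with the control siRNA, whereas miR-182 was 2.87-fold lower in NTera-2 cells. MiR-183 and miR-183# did not pass the test. With so many assays differing between the lines, 277 of 386 (71.8%), a call alone sets no member apart.

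The level of miR-96 was -3.29, -2.76 and -4.60 in NTera-2 NC, against -6.61, -6.43 and -5.94 in 2102Ep NC cells. The log2 fold change was 2.79 ± 0.51 (SE, adjusted p = 0.00287, limma). MiR-182 had levels of -1.14, -0.49 and -0.84 in NTera-2 NC, against 0.76, 0.89 and 0.48 in 2102Ep NC cells, and a log2 fold change of -1.52 ± 0.27 (adjusted p = 0.00269, limma). For both members the lines did not overlap, as for 78% of all assays. MiR-183 had -0.44 ± 0.24 (adjusted p = 0.142) and miR-183# 0.26 ± 0.48 (adjusted p = 0.637).

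After SOX2 knock-down miR-96, miR-183 and miR-183# were higher in NTera-2 than in 2102Ep cells, and miR-182 did not pass the test. MiR-96 was at -3.39, -3.08 and -2.89 in NTera-2 siSOX2, against -8.96, -11.17 and -7.74 in 2102Ep siSOX2 cells, a 71.9-fold higher level (log2 fold change 6.17 ± 0.84, adjusted p = 0.000814, limma). This value was 5.23 without 2102Ep siSOX2 replicate 2, 6.94 without 2102Ep siSOX2 replicate 3 and 2.34 (adjusted p = 0.0308) on the deposited dCt. MiR-183 was 3.38-fold higher (log2 fold change 1.76 ± 0.33, adjusted p = 0.00328) and miR-183# 3.96-fold higher (1.99 ± 0.34, adjusted p = 0.00217) in NTera-2 siSOX2 cells. MiR-182 had 0.08 ± 0.21 (adjusted p = 0.733). In this comparison 285 of 385 assays passed (74%), and 78.7% did not overlap.

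These differences between lines rest on the scale. On card B, the reference RNAs of the deposited dCt included U6 in NTera-2 cells. Those of 2102Ep cells were not traced there, and no U6 value was given for them on that card. On card A, U6 had a raw Ct of 10.46 to 11.02 in NTera-2 cells, against 14.72 to 15.05 in 2102Ep cells. On the deposited dCt, miR-96 was at -0.86 (adjusted p = 0.137), miR-183 at -4.09 and miR-182 at -5.17 in NTera-2 NC relative to 2102Ep NC cells, and after knock-down miR-183 was at -2.07. Against RNU44 and RNU48, miR-96 was at 1.26 (adjusted p = 0.0709) and miR-182 at -3.05 between the NC samples, and miR-96 at 4.01 after knock-down. The differences among miR-183, miR-96 and miR-182 within a sample do not depend on the reference. MiR-96 minus miR-182 was -2.73 ± 0.90 in NTera-2 NC, against -7.04 ± 0.54 in 2102Ep NC cells, and -2.90 ± 0.31 in NTera-2 siSOX2, against -8.98 ± 1.78 in 2102Ep siSOX2 cells (SD, n = 3 each). MiR-183 minus miR-182 was -0.53 ± 0.15 in NTera-2 NC, against -1.61 ± 0.24 in 2102Ep NC cells, and miR-183 minus miR-96 was 2.20 ± 1.00, against 5.43 ± 0.44. All 3 differences were apart between the lines in both arms, with no test made. How many other card A pairs were apart was not counted. Between the lines, 78% of single assays did not overlap in NC and 78.7% in siSOX2 samples.

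**Figure D5:**
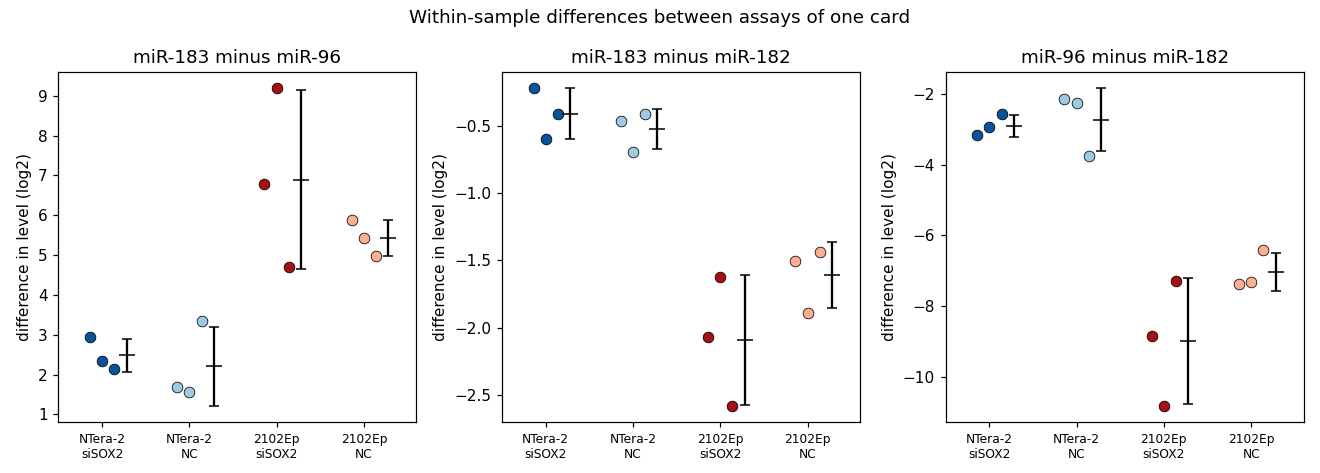
Difference in level between 2 members within each sample (log2), for the 3 pairs measured on card A, with the mean and SD of each group of 3. The NTera-2 samples and the 2102Ep samples lie apart in every panel, and within each line the siSOX2 and NC samples overlap.

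Over the 4 groups, on the scale where the card mean is 0, the level of miR-183 was highest in NTera-2 siSOX2 (-0.64 ± 0.17). Next came 2102Ep NC (-0.90 ± 0.13), NTera-2 NC (-1.35 ± 0.22) and 2102Ep siSOX2 (-2.40 ± 0.56, SD, n = 3 each). No 2 neighbours overlapped, but the lowest NTera-2 siSOX2 sample (-0.739) lay only just above the highest 2102Ep NC sample (-0.745). With the card median as the reference, NTera-2 NC came before 2102Ep NC. How many other assays had no overlapping neighbours was not counted. MiR-182 was highest in 2102Ep NC (0.71 ± 0.21), and the next groups, NTera-2 siSOX2 (-0.22 ± 0.10) and 2102Ep siSOX2 (-0.31 ± 0.17), overlapped, with NTera-2 NC lowest (-0.82 ± 0.32). MiR-96 was at -3.12 ± 0.26 in NTera-2 siSOX2 and -3.55 ± 0.95 in NTera-2 NC, which overlapped, then at -6.33 ± 0.35 in 2102Ep NC and -9.29 ± 1.74 in 2102Ep siSOX2. MiR-183# was at 1.83 ± 0.24 in NTera-2 siSOX2, 1.37 ± 0.91 in NTera-2 NC and 1.07 ± 0.24 in 2102Ep NC, which overlapped in turn, and was lowest in 2102Ep siSOX2 (-0.10 ± 0.56). On this scale 2102Ep siSOX2 was the lowest group for miR-183, miR-183# and miR-96. On the deposited dCt it was so for miR-96 alone, and the lowest was NTera-2 NC for miR-183 and NTera-2 siSOX2 for miR-183#.

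MiR-1271, which carries the seed of miR-96 on another chromosome, had a raw Ct of 23.14, 24.25 and 22.79 in NTera-2 siSOX2 and of 23.22, 21.71 and 22.72 in NTera-2 NC cells, against 31.51, 30.73 and 31.49 in 2102Ep siSOX2 and 30.18, 30.34 and 29.20 in 2102Ep NC cells. On the card-mean scale it was higher in NTera-2 than in 2102Ep cells with the control siRNA, by 7.82 ± 0.40 (log2 scale, adjusted p = 3.714e-05, limma), although its deposited dCt averaged 5.87 in NTera-2 NC and 5.36 in 2102Ep NC cells. After SOX2 knock-down it had log2 fold changes of -1.17 ± 0.41 in 2102Ep (adjusted p = 0.0903) and -1.04 ± 0.41 in NTera-2 cells (adjusted p = 0.172), neither past the threshold.

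The assays whose level followed the members most closely were sought among the 366 other assays measured in all 12 samples. After removing the mean of each line, miR-210, a miRNA induced by low oxygen, was closest to miR-183 (Pearson r = 0.975 over 12 samples), with miR-211 (0.866) and miR-26a (0.865) next. MiR-26a (0.953), miR-210 (0.905) and miR-519e, of the primate C19MC cluster (0.876), were closest to miR-182, and miR-425# (0.894), miR-210 (0.834) and miR-26a-1# (0.820) to miR-183#. MiR-96 had other neighbours, miR-296 (0.883), miR-192# (0.844) and miR-17 (0.842). Among the members, miR-183 correlated with miR-182 by 0.910 and with miR-183# by 0.847, but with miR-96 by 0.504. These r are descriptions over samples that share 4 group means and card references.

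Without removing the line means, miR-210 (0.942), miR-26a (0.894) and miR-218 (0.794) were closest to miR-183, and miR-502 (0.952), miR-942 (0.940) and miR-18a# (0.920) to miR-96. MiR-26a-1# (0.884), miR-26a (0.857) and miR-766 (0.851) were closest to miR-183#, and miR-425# (0.862), miR-519e (0.859) and miR-148a (0.828) to miR-182. MiR-210, which had the highest r with miR-183 both ways, had a dCt of 4.65, 4.53 and 5.90 in siSOX2, against 3.05, 3.14 and 2.89 in NC cells of 2102Ep, and a log2 fold change of -2.0 ± 0.34 (adjusted p = 0.00434, limma). In NTera-2 cells its log2 fold change was 0.44 ± 0.34 (adjusted p = 0.527), and the difference between the lines was 2.44 ± 0.48 (adjusted p = 0.0215). As for miR-183, 2102Ep siSOX2 replicate 3 was the lowest sample.

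Lists of other miRNAs give the surroundings of these values. MiR-184, miR-9# and miR-7 were the members of a list of neural and eye miRNAs that passed the test. In 2102Ep cells miR-9# rose (2.26) and miR-184 fell (-0.74) among 9 assays tested, where 14.1% of all assays passed, with a median of -0.33 against 0.00 for all assays. In NTera-2 cells miR-184, a miRNA of the lens and cornea, rose (1.25) and miR-7 fell (-1.18) among 10, where 5.54% of all assays passed, with a median of -0.01 against -0.27 for all assays. No assay of the miR-200 family and miR-205, epithelial miRNAs, passed in either line (NTera-2 0 of 8, 2102Ep 0 of 6), and the smallest adjusted p was 0.0953, for miR-200c in NTera-2 cells (-0.85). Before adjustment, limma's p was 0.05 or less for 2 of 8 in NTera-2 cells, where it was so for 21.7% of all assays, and for 0 of 6 in 2102Ep cells, where it was so for 25%.

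The 3 precursors of the cluster are on a list of precursors with a SOX2 site nearby in human embryonic stem cells, which comes from the supplement to the study and rests on SOX2 binding in those cells. Apart from the 4 members, 51 of its assays were tested in 2102Ep cells, of which 3 rose (miR-9#, miR-424 and miR-181a-2#) and 2 fell (miR-766 and miR-135b#), against 14.1% called among all assays, with a median of 0.15 against 0.00 for all assays. In NTera-2 cells 54 were tested and 6 fell, against 5.54% called among all assays, with a median of -0.30 against -0.27 for all assays. MiR-135b (-1.35) and miR-181a-2# (-2.16) had the lowest adjusted p there. The log2 fold changes of the 4 members in 2102Ep cells were -3.0 to -1.06. The members were chosen with earlier results known, so their place against the median of the list is not a test.

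No marker of blood, liver or muscle passed the test in either line (limma), where 14.1% of all assays passed in 2102Ep and 5.54% in NTera-2 cells. Before adjustment, limma's p was 0.05 or less for 0 of 9 of them in 2102Ep cells, against 25% of all assays. In NTera-2 cells it was so for 1 of 5 blood, 1 of 3 liver and 0 of 2 muscle assays, against 21.7% of all assays. MiR-451, miR-142-5p, miR-122, miR-1 and miR-133b were not analysed here. For blood and serum, 5 assays were found for 7 miRNAs, with a summed level (log2, card mean 0) of 1.26 to 1.85 in siSOX2 and 1.56 to 1.68 in NC samples of 2102Ep, and of 0.09 to 0.73 in siSOX2 and -0.22 to 0.27 in NC samples of NTera-2. The 3 liver assays summed to 3.04 to 3.27 in siSOX2 and 2.90 to 3.40 in NC samples of 2102Ep, and to 1.66 to 2.09 in siSOX2 and 1.34 to 2.19 in NC samples of NTera-2. The 2 muscle assays summed to 2.30 to 2.47 in siSOX2 and 2.72 to 3.03 in NC samples of 2102Ep, and to 3.32 to 4.01 in siSOX2 and 2.66 to 3.49 in NC samples of NTera-2. The sums skip unmeasured values. In NTera-2 NC 1 of the 2 muscle assays, and in 2102Ep siSOX2 4 of the 5 blood assays, were measured in all 3 samples. Their part in the values of the cluster was not tested. Among the 12 assays of the embryonal carcinoma markers, miR-372 fell in NTera-2 cells (-1.40, adjusted p = 0.0266, limma), and in 2102Ep cells 0 passed and 0 had a p of 0.05 or less before adjustment.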

How the data were processed

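MiRNA was measured by quantitative PCR on TaqMan Array Human MicroRNA cards after reverse transcription and pre-amplification (290 assays on card A and 211 on card B). The authors deposited raw Ct, on the log2 scale with no normalization, and dCt, also on the log2 scale, from which DataAssist had removed the level of reference RNAs on each card. The deposited table of fold changes and p-values holds the authors' own comparisons and was not used. The constants equalled the mean of miR-16 and U6 on card A, and of miR-16-1*, RNU48 and U6 on card B of NTera-2, within 0.02 cycles. The constant of card B in 2102Ep was used without tracing its RNAs. One column, 2102Ep siSOX2 replicate 3, had its raw values displaced by 1 measured row from row 106 on (339 values), and these were rebuilt by adding the constant to the dCt. Another 9 blank raw cells were filled in the same way. The members on card A were miR-183, miR-96 and miR-182, and miR-183# was on card B.

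Minus dCt was tested by a two-sided limma fit (version 3.58.1, R 4.3.3, with eBayes) of the means of the 4 groups over 12 samples, for assays with 2 or more of 3 values per arm. P-values were adjusted over all assays of a comparison (Benjamini-Hochberg) and called under 0.05. Folds take 1 cycle as a doubling. The lines were compared on the 6 samples of an arm, as raw Ct minus the mean of the card over assays measured in all 6. Levels in the 4 groups use the assays measured in all 12. Within-sample differences were tested by exact permutation in scipy 1.17.1. The fits were run on simulated data with independent normal noise and the same SD for an assay in all groups. Unequal spreads, as for miR-96, and shared replicate effects were left out of that simulation. Arrays of 3 samples a group limit the precision, and no depth applies to Ct.

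NC and siSOX2 samples of the same replicate number correlated in their residuals by 0.118, 0.265 and 0.160 in NTera-2 cells. In 2102Ep cells these values were 0.158, 0.169 and 0.064. Samples of unlike number correlated by -0.178 to 0.054 in NTera-2 and by -0.216 to 0.036 in 2102Ep cells. The labels name no pairing and the main fits used none. The replicate number entered only as a block, among the alternatives. Alternatives were U6, RNU44 with RNU48, or the mean or median of the card as the reference, a mean raw Ct of 35 or 32 or less, complete assays, unmeasured values at Ct 40, each assay alone, a trend in eBayes, the 6 samples of a line, a replicate block, and each sample left out. The members and lists were chosen with earlier results of these data known. Named miRNAs were the 4 members, assays sharing bases 2 to 8 with one, the 3 assays closest to each member with and without line means, and up to 4 members of each list with the smallest adjusted p. MiRNA sequences and positions are those of RefSeq (GRCh38.p14), in which all 4 members were found.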

Additional observations from a re-analysis of the deposited data

Results flagged for a closer look

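For 2 members the test of the difference in response between the lines passed, though not under every alternative. For miR-183 the effect in NTera-2 minus that in 2102Ep was 2.02 on the log2 scale (adjusted p = 0.0382, limma), with an effect of 0.49 in NTera-2 cells against -1.54 in 2102Ep cells. For miR-182 it was 1.43 (adjusted p = 0.0405, limma), with an effect of 0.37 in NTera-2 cells against -1.06 in 2102Ep cells. The lines also differed in siRNA dose, transfection reagent and the reported fall of SOX2 mRNA, which cannot be told apart from the line. By Western blot, the paper found no SOX2 protein in siSOX2 cells of either line. With the replicate block neither passed (adjusted p = 0.0871 for miR-183 and 0.0713 for miR-182), nor did either with U6 or with RNU44 and RNU48 as the reference. When each sample was left out, miR-183 passed in 4 and miR-182 in 1 of the 12 fits.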

How the results depend on the processing

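In 2102Ep cells the number of members past the threshold was 3 of 4, and 1 to 3 when each sample was left out in turn, with 1 without NC replicate 1. In NTera-2 cells it was 0 under all 18 alternatives. The difference between the lines passed for 2 members, for 0 with U6, with RNU44 and RNU48 and with the replicate block, and for 0 to 2 when each sample was left out. The cause was not tested. With the replicate block 3 members passed in 2102Ep and none (0) in NTera-2 cells, 2 between the NC and 3 between the siSOX2 samples of the lines, as without it. The calls in all assays ranged from 37 to 61 in 2102Ep, from 7 to 34 in NTera-2 cells and from 1 to 34 for the difference.

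Values under the alternatives changed sign only where no call was made, or between the lines. In NTera-2 cells miR-183# was 0.46 against the card mean, 0.41 against the card median and 0.020 against RNU44 and RNU48. When each sample was left out it ranged from -0.48 (without NC replicate 1) to 0.31 (without NC replicate 2), and was 0.025 and 0.19 without NC replicate 3 or siSOX2 replicate 2, while miR-96 ranged from -0.28 (without NC replicate 3) to 0.61. Between NTera-2 NC and 2102Ep NC, the deposited dCt gave -8.07 for miR-183# and -0.86 for miR-96, the card median 0.043 for miR-183 and -0.16 for miR-183#, RNU44 and RNU48 -2.05 for miR-183#, and leaving out each sample gave -0.18 (without NTera-2 NC replicate 2) to 0.73 for miR-183#. Between NTera-2 siSOX2 and 2102Ep siSOX2, the deposited dCt gave -2.07 for miR-183, -6.97 for miR-183# and -3.74 for miR-182, and RNU44 and RNU48 gave -0.40, -1.44 and -2.08 for the same members. The order of the 4 group means was that of the card mean for 0 of the 4 members with the deposited dCt and for 2 with the card median. On card B, which holds miR-183# alone of the members, the reference RNAs of the deposited dCt include U6 in NTera-2 cells. Those of 2102Ep cells were not traced there, and no U6 value was given for them. On card A the reference RNAs are miR-16 and U6 in both lines. MiR-96 in 2102Ep cells, at a raw Ct of up to 35.1, is limited by its low signal, and a group holds 3 samples.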
